A study of Mus musculus with 3 samples.

Results

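Broad domains of H3K36me3 of 50 kb or more were described in fully-grown mouse oocytes. H3K36me3, trimethylation of lysine 36 of histone H3, was measured in 2 kb windows of the genome, and a domain was a run of at least 25 directly adjacent windows on 1 chromosome, each with a mean above 1 RPKM (sequence reads scaled to window length and library depth) over 3 replicates. Members were thus chosen by their H3K36me3 level. The rule gave 2611 domains made up of 105485 windows, 8.89% of the 1186323 valid windows and 28.0% of the 376991 enriched windows, those with a mean above 1 (31.8% of valid windows). The domains covered 210.97 Mb. They were 3.48% of the 75026 runs of enriched windows.

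The series held a single group of 3 replicates, labelled d25 GV H3K36me3. Each was a pool of about 280 oocytes with an intact nucleus, the germinal vesicle (GV), from wildtype C57BL6/Babr mice 25 days old, and chromatin was cut with micrococcal nuclease and pulled down without cross-linking. A smaller amount of antibody went into replicate 2. Calls of H3K4me3 and H3K27me3 for the same windows, made by the authors from other libraries, were deposited beside the H3K36me3 values. There was no treated group, and the comparisons below are between domains, shorter runs of enriched windows and all valid windows of the same libraries.

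As background, H3K36me3 is laid down by SETD2, which travels with RNA polymerase II, so the mark builds up over the bodies of transcribed genes, introns included, and away from their starts. In growing oocytes DNA methylation is laid down over transcribed regions by the DNA methyltransferase DNMT3A with its partner DNMT3L, and it depends on H3K36me3, though how the mark acts on these enzymes is not settled. H3K4me3 marks active promoters and in oocytes also forms broad regions outside them, and H3K27me3, a mark of Polycomb, covers much of the silent genome.

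The depth differed between replicates. In replicates 1, 2 and 3 a single read was worth 0.136, 0.396 and 0.338 RPKM, so that a window needed 8, 3 and 3 reads to pass 1 RPKM. The valid windows held 7888140, 2692510 and 3166564 reads and the domains 1804022, 661922 and 803842 of them, a share of 24.3% ± 1.28 (SD, n = 3). The 6 oocyte markers (Kit, Gdf9, Bmp15, Zp3, Figla and Nobox) had between 1.73 and 3.82 RPKM, with all windows enriched but 1 of the 41 of Kit, and Kit, Zp3 and Figla had windows in domains. The 6 granulosa cell markers had between 0.353 (Fshr) and 2.01 RPKM (Nr5a2) and no window in a domain, as was also so for Gdf9, Bmp15 and Nobox. Of their windows, 55 of 59 were enriched in Nr5a2, 7 of 10 in Inhba, 11 of 51 in Cyp19a1, 4 of 101 in Fshr and none in Foxl2 and Amh. The part of somatic cells in the domains was not tested beyond these markers.

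Sequences are shown first for the places to which the results return, all on GRCm38. The first set holds the 250 bases before the RefSeq start of genes whose start lies inside a domain of another gene without an H3K4me3 call. Nap1l5 and Zrsr1 are imprinted genes that sit in introns of Herc3 and Commd1, and Airn and Kcnq1ot1 are imprinted noncoding RNAs that run against Igf2r and Kcnq1. Each CG, the site of DNA methylation, is in capitals: there are 10 before Nap1l5, 8 before Zrsr1, 2 before Airn and 5 before Kcnq1ot1.
Nap1l5, chr6:58907127-58907376, minus strand: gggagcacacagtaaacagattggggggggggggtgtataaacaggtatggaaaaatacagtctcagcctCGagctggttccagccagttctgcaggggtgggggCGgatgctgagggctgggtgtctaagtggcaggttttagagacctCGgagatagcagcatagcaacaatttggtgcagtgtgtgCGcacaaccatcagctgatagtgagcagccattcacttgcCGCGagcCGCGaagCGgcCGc
Zrsr1, chr11:22971755-22972004, plus strand: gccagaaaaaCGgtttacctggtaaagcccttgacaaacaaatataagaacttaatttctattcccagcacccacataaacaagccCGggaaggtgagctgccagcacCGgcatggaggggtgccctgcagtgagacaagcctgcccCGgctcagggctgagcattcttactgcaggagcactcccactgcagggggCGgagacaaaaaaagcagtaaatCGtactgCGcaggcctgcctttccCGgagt
Airn, chr17:12741061-12741310, plus strand: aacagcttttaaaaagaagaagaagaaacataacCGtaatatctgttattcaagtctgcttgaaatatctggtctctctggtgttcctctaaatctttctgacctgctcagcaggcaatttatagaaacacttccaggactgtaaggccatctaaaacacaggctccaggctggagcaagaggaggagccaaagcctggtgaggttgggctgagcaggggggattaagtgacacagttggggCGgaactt
Kcnq1ot1, chr7:143296548-143296797, minus strand: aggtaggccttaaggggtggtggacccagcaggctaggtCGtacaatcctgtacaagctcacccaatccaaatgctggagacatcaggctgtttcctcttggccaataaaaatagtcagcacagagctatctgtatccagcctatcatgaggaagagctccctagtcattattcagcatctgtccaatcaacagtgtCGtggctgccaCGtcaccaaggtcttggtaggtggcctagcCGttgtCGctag

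The second set shows both ends of the 2 longest introns that lay wholly inside a domain, since intron made up most of the domains. Intron 2 of 8 of Prickle2 and intron 5 of 8 of Scfd2 are both on the minus strand, and the letters are read along the gene. Capitals mark the splice donor and the splice acceptor. Over all 37620 introns wholly inside domains, 37205 (98.9%) began with GT and ended with AG on the strand of their gene. The share over all introns was not counted, so this value is not read as a trait of domains.
Prickle2 intron, first 60 bases, chr6:92705286-92705345: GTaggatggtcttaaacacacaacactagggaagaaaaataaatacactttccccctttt
Prickle2 intron, last 60 bases, chr6:92458659-92458718: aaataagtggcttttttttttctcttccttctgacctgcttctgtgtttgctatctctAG
Scfd2 intron, first 60 bases, chr5:74397594-74397653: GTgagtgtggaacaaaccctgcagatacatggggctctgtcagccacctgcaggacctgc
Scfd2 intron, last 60 bases, chr5:74236585-74236644: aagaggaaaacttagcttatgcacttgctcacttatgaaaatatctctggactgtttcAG

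The third set shows the centre of the highest window of 2 domains that went against the common pattern, again with each CG in capitals and on the plus strand. The Ak8 domain was called for H3K27me3 in every window. The other lies between Eef2kmt and Rbfox1 and held no gene of any kind. Its 200 bases hold no CG, and those of the Ak8 domain hold 2.
Ak8 domain, chr2:28710901-28711100: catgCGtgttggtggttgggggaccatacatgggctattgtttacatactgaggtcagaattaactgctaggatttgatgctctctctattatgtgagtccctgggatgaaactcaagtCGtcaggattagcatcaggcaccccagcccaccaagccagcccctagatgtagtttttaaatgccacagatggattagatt
Domain between Eef2kmt and Rbfox1, chr16:5768901-5769100: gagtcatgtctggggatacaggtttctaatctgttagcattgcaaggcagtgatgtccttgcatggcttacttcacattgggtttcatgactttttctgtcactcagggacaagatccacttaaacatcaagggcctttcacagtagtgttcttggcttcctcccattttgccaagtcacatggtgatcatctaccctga

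Domain length fell off steadily. The median length was 68 kb, the upper quartile 92 kb and the 90% quantile 124 kb, with 540 domains of at least 100 kb, 136 of at least 150 kb, 40 of at least 200 kb and 6 of at least 300 kb. Domains of at least 100 kb held 34.8% of all domain windows. The 20 chromosomes other than Y all had domains, from 50 on X to 221 on chromosome 5. Domains took 2.77% of the valid and 11.1% of the enriched windows of X, against 9.25% and 28.8% over the autosomes. The lowest autosome was chromosome 3 with 4.65% and the highest chromosome 5 with 13.4%.

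**Figure D1:**
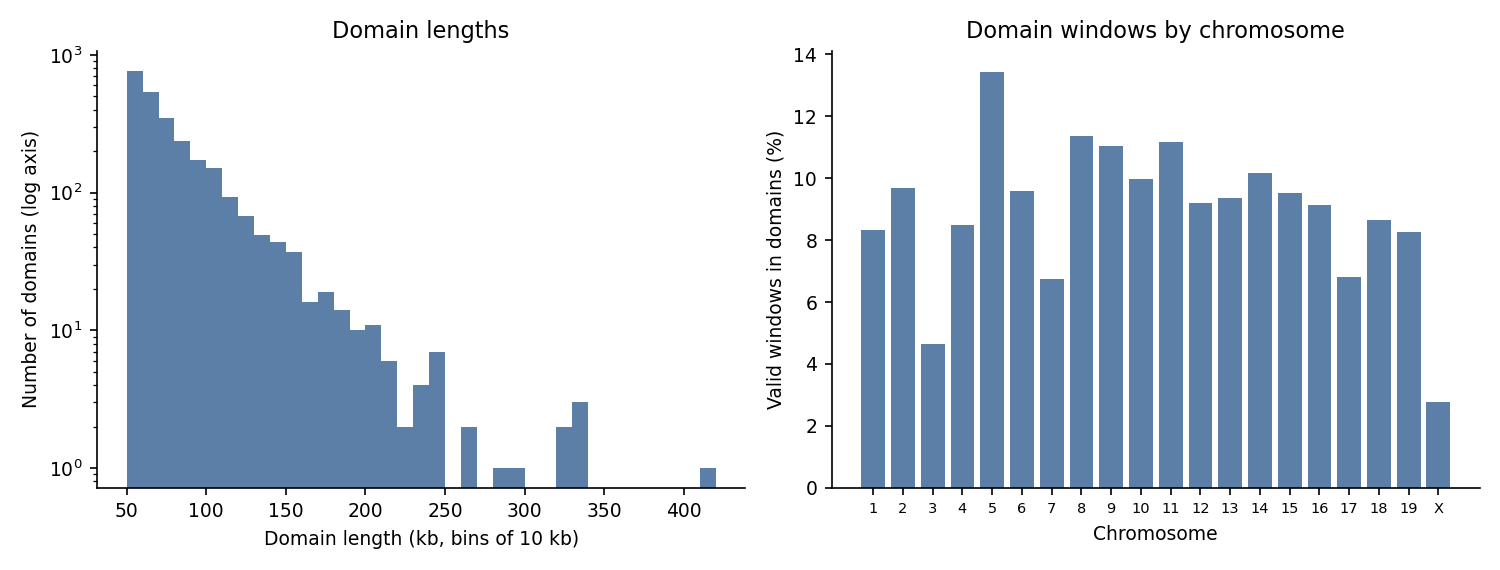
Left, the number of domains (log axis) by length in kb, in bins of 10 kb. Right, the share of valid windows that lay in domains on each chromosome, in percent: chromosome 5 stands highest at 13.4% and X lowest at 2.77%.

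The levels within domains describe how they were chosen and carry no test. Over domain windows the mean was 2.32, 2.49 and 2.58 RPKM in replicates 1, 2 and 3 (2.46 ± 0.130, SD, n = 3). Enriched windows of shorter runs had 1.79, 1.95 and 2.10 RPKM and windows that were not enriched 0.422, 0.342 and 0.284. All 2611 domains had a mean above 1 in each replicate taken alone, and their means ran from 1.59 to 4.01 RPKM with a median of 2.42. Single windows were less even: 78.4% of domain windows were above 1 in all 3 replicates, and 2 domains, at Ubp1 and Sh3rf3, had every window so. These 2 were picked out after their values were seen.

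To ask whether domains stood out in data that had not chosen them, they were called on the mean of 2 replicates and read in the one left out. The held-out level was 2.39 RPKM in domains and 1.74 in shorter runs for replicate 1, 2.46 and 1.74 for replicate 2, and 2.58 and 1.88 for replicate 3. Domains were higher in 3 of 3 replicates, by 0.47 ± 0.02 on the log2 scale (SD, n = 3), and flipping signs over the replicates (an exact permutation test, two-sided) gave p = 0.25, which is as low as it can go with 3 replicates. Against shorter runs of 5 to 24 windows alone, the difference was 0.23 ± 0.05 on the log2 scale, also with p = 0.25 in the exact test. The number of domains depended on the deepest library: without replicate 1 it was 1731, with 62953 windows, in place of 2611 with 105485. Each replicate called alone gave 2337, 433 and 1339 domains, and 80.9%, 96.1% and 87.7% of their windows lay in the domains of the mean.

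Held-out levels changed at domain edges. The outermost window of a domain had 1.97 ± 0.085 RPKM (SD, n = 3) in the held-out replicate, the next window inside 2.30 ± 0.103 and the window 20 kb inside 2.48 ± 0.098. The first window outside had 1.23 ± 0.147 RPKM, and 20 kb outside the level was back at 1.59 ± 0.050. Of the 5222 domain ends, 4849 (92.9%) lay beside a window at or below 1, with a median of 0.723 RPKM there, and 373 (7.14%) beside a window that was not among the valid ones. Neighbouring domains were separated by a single window in 182 cases.

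**Figure D2:**
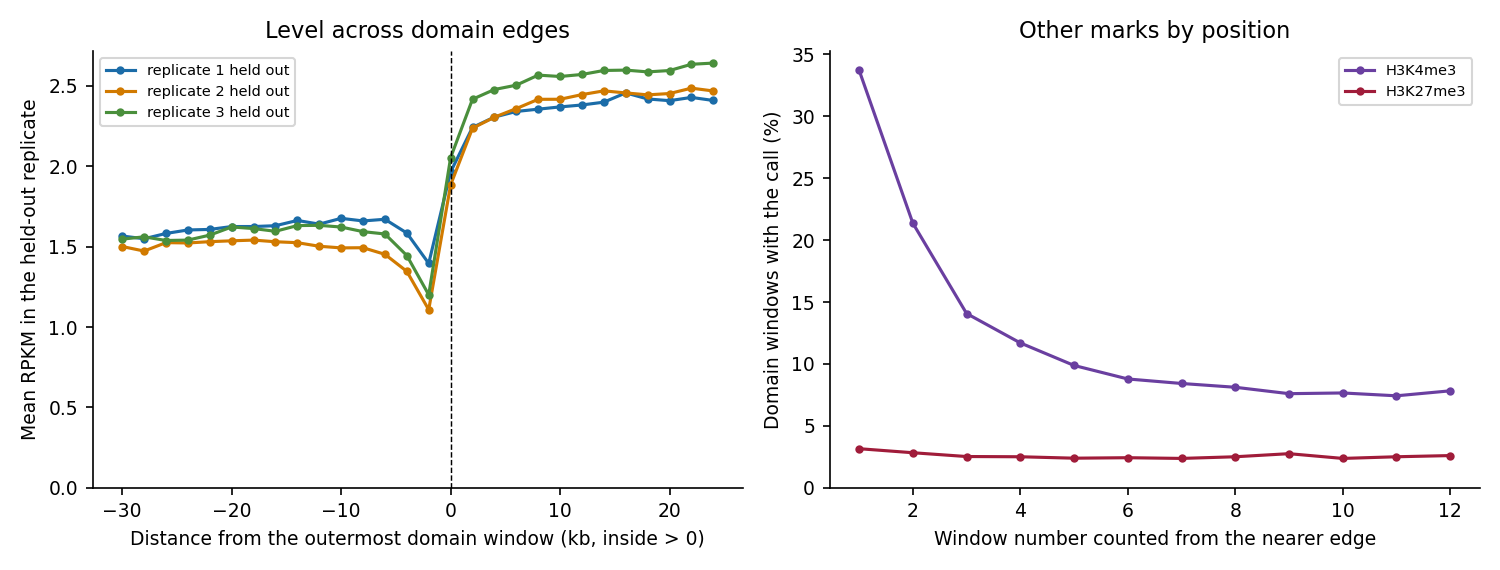
Left, mean H3K36me3 (RPKM) of the replicate not used to call the domains against distance from the outermost domain window, in kb, 1 line per replicate: all 3 rise from between 1.1 and 1.4 just outside to above 2.2 within 2 kb inside. Right, the share of domain windows called for H3K4me3 or H3K27me3 by window number from the nearer edge, with H3K4me3 falling from 33.7% to below 8% and H3K27me3 near 2.5% throughout.

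The domains lay mostly in genes. By its midpoint, 89.7% of domain windows were inside an annotated gene and 85.5% inside a protein-coding gene. The shares were 68.5% and 62.5% in shorter runs and 48.9% and 42.2% over all valid windows. Shorter runs include single enriched windows, of which 47.5% were in genes. Over all runs of at least 15 windows, domains included, the shares were 86.9% and 82.5%, so the contrast rests in part on the shortest runs. The order of domains over shorter runs held in each replicate called alone, with 89.97%, 90.9% and 88.7% of domain windows in genes against 68.9%, 67.3% and 66.9%. Long noncoding RNA genes without a protein-coding gene held 3.99% of domain windows, and 10.3% of domain windows were in no gene. In all, 2889 protein-coding genes had at least 1 domain window.

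Domains lay about equally in genes of both strands. Chromatin carries no strand, so the strand is that of the gene. Windows in protein-coding genes of the plus strand alone made up 42.3% of domain windows and those of the minus strand alone 41.9%, with 2.48 ± 0.13 and 2.47 ± 0.12 RPKM (SD, n = 3), and 1.29% lay in genes of both strands. Within a domain, 1 strand usually prevailed. Of 2346 domains with windows in protein-coding genes, 1888 (80.5%) had at least 90% of them on 1 strand, 957 on the plus and 931 on the minus strand. This share was 73.4% when all annotated genes were counted.

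A single gene accounted for most domains. Counting protein-coding genes that held at least 10% of a domain's windows, 1770 domains (67.8%) had 1 gene, 122 (4.67%) several genes on 1 strand, 447 (17.1%) genes on both strands and 272 (10.4%) none. At least 90% of the domain lay in 1 gene in 1540 cases, and 918 domains (35.2%) lay wholly within 1. Among 347 domains with 2 such genes on opposite strands, 167 pairs were convergent, ending towards each other with a median gap of 3101 bases, 144 overlapped and 36 were divergent, with starts a median of 165 bases apart. The number of genes per domain reached 26.

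The 10 longest domains each centred on 1 long gene. The longest covered 410 kb of chromosome 8 from 127240001 to 127650000 with 2.40, 2.58 and 2.71 RPKM in replicates 1, 2 and 3, and 186 of its 205 windows lay in Pard3 (ENSMUSG00000025812.17, plus strand, 127063893 to 127612286), a scaffold protein of cell polarity. It began inside the gene and ran past its end. The domain of Prickle2 (ENSMUSG00000030020.13, minus strand), a planar cell polarity protein, covered 336 kb of chromosome 6 from 92370001 to 92706000, at 2.41, 2.71 and 2.54 RPKM. That is nearly the whole gene, which spans 92370908 to 92706155.

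The domain of Atxn1, which encodes the nuclear protein ataxin-1, had the same length of 336 kb (chromosome 13, 45518001 to 45854000) and reached over the 3′ end of Atxn1 on the minus strand into Gmpr, the gene of GMP reductase, on the plus strand. The Agap1 domain (chromosome 1, 89568001 to 89898000, 330 kb) ended within 1 window of the gene's end at 89897617. Next were Syne2, the gene of the giant nuclear envelope protein nesprin-2 (324 kb, chromosome 12), whose domain also held windows of Esr2 on the other strand, and the cytoskeletal adaptor Sorbs2 (324 kb, chromosome 8). Cacna2d3, a calcium channel subunit (290 kb, chromosome 14), had 2.96 ± 0.10 RPKM (SD, n = 3). Ttn, which encodes the muscle protein titin (280 kb, chromosome 2), had 3.14 ± 0.16 RPKM. The autophagy gene Uvrag (264 kb, chromosome 7) had 2.32 ± 0.12 RPKM. Exon made up 42.2% of the gene bases of the Ttn domain but between 2.86% and 10.4% of those of the other 9.

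The Cdh23 domain (chromosome 10, 60278001 to 60546000, 268 kb) was the ninth longest and had 3.45, 3.72 and 3.57 RPKM. Cdh23 on the minus strand encodes a cadherin of hair cell tip links, and the domain also held windows of Vsir and Psap on the plus strand. It differed from the other 9 in its H3K27me3 calls: 86 of its 134 windows had one, against 0 or 1 windows in each of the others.

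**Figure D3:**
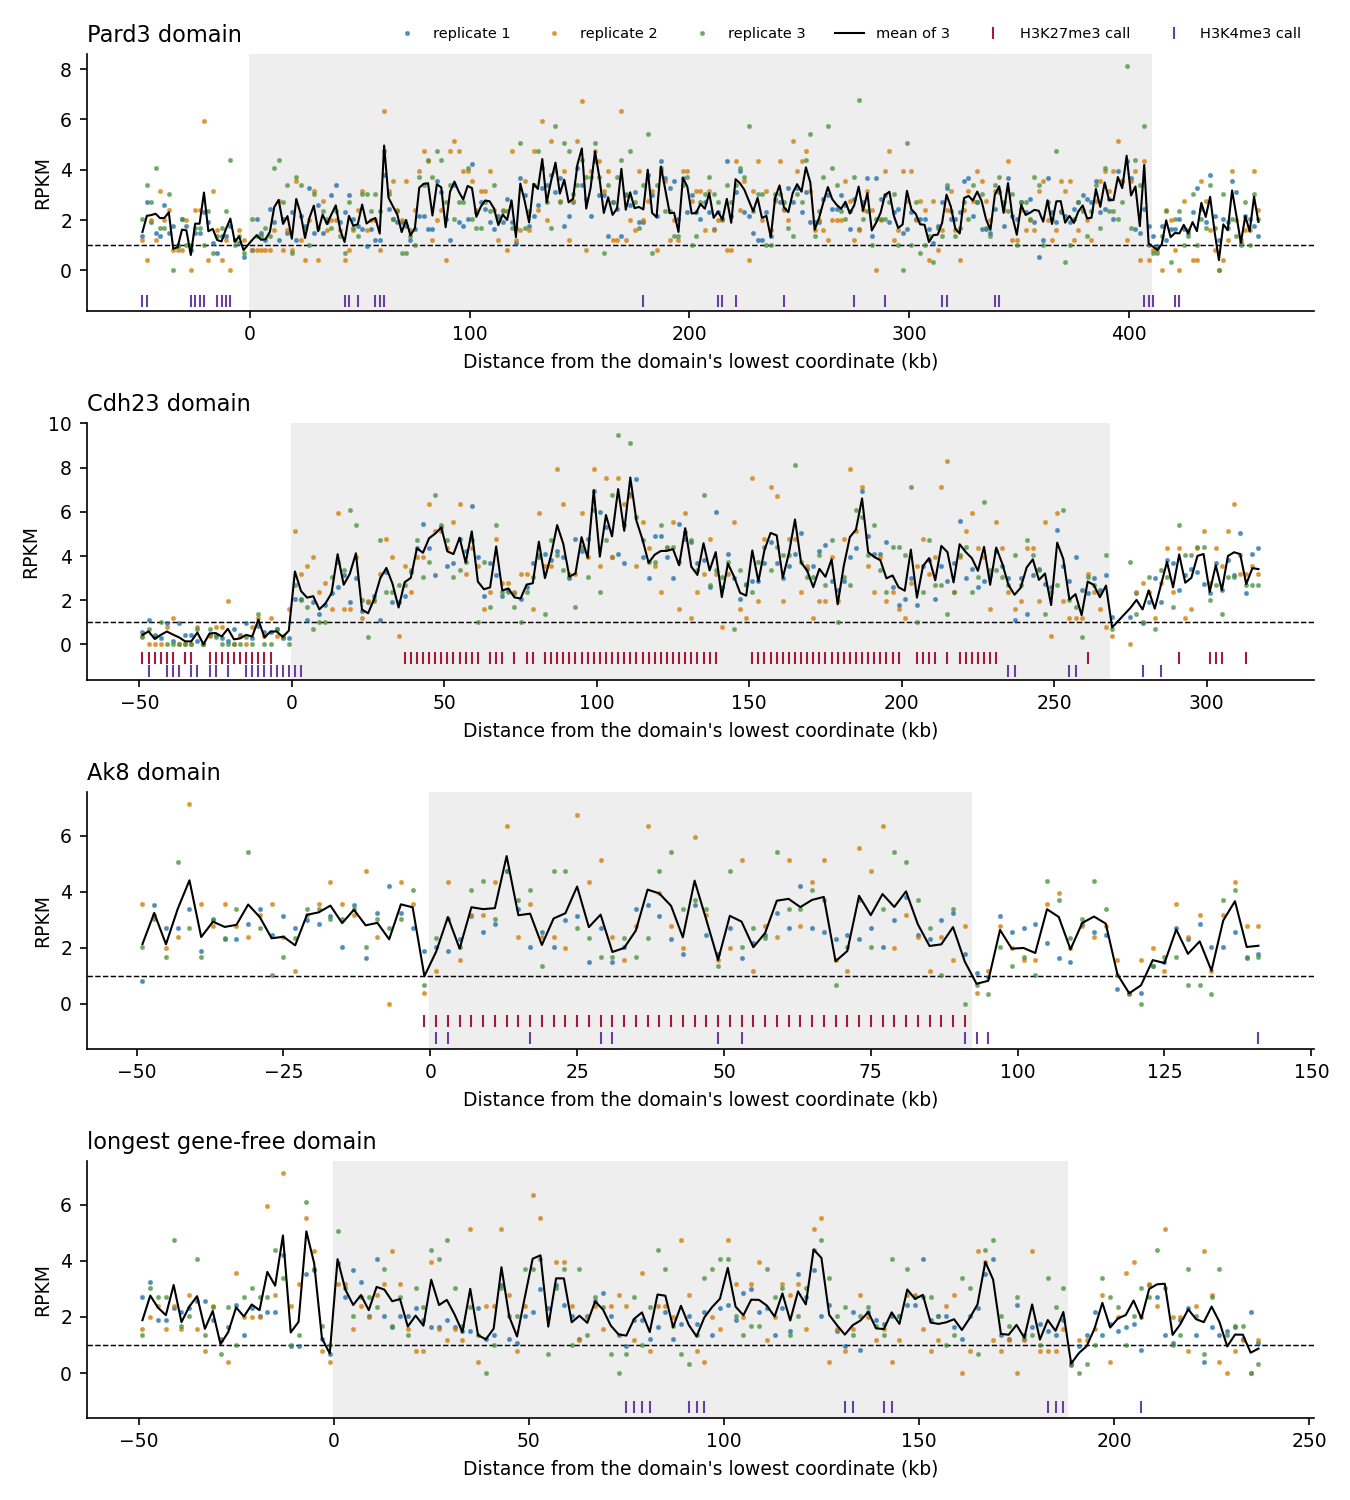
H3K36me3 (RPKM) by window across 4 domains and 50 kb on either side, against distance in kb from the domain's lowest coordinate: points are the 3 replicates, the black line their mean, the grey area the domain and the dashed line 1 RPKM, and ticks below mark windows called for H3K27me3 or H3K4me3. The Pard3 and gene-free domains have no H3K27me3 tick, the Cdh23 domain has 86 and the Ak8 domain has 1 in each of its 46 windows.

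Other domains held several genes. The domain with 26 protein-coding genes lay on chromosome 18 from 37822001 to 37954000 over the gamma protocadherin cluster, whose genes share their last exons, and over Diaph1 on the other strand, which held 46 of its 66 windows. The next had 8 protein-coding genes over 60 kb of chromosome 7 around Mvp, the gene of the major vault protein, with Kif22 and Maz. Then came 7 over 108 kb of chromosome 5 at Arpc1a and Arpc1b, which encode subunits of the actin-nucleating ARP2/3 complex, and 7 over 70 kb of chromosome 9 at Rnf123 and Ip6k1. Domains at Ddhd2, Ankhd1 and Eif2ak1 each had 6. That at Ddhd2 covered 114 kb of chromosome 8 with Ash2l and Star, the last of which carries cholesterol into mitochondria. In those at Mvp, Arpc1a, Rnf123 and Ddhd2, exon took 23.2% to 44.4% of gene bases. H3K4me3 was called in 17.1% to 22.2% of their windows. The domains at Diaph1, Ankhd1 and Eif2ak1 were lower, with exon at 12.98%, 16.2% and 23.1% of gene bases. Their H3K4me3 shares were 13.6%, 7.41% and 5%, against 10.1% of all domain windows. High H3K4me3 was thus not shared by all of these gene-rich domains.

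Domains without much protein-coding gene were fewer. In 321 domains (12.3%) fewer than 50% of the windows, by midpoint, lay in protein-coding genes, and in 103 no window lay in any gene. The longest of the 321 covered 246 kb of chromosome 13 from 55888001 to 56134000, at 2.51, 2.77 and 2.69 RPKM. Its windows lay in the noncoding gene Gm47071, which ran over 98 of its 123 windows, and in H2afy, the gene of the histone variant macroH2A1, on the opposite strand. The second, 230 kb on chromosome 15 from 61996001 to 62226000, lay for 94 of its 115 windows in Pvt1, a long noncoding RNA next to Myc, with 2.54, 2.92 and 2.93 RPKM. The third, 208 kb on chromosome 8 from 116262001 to 116470000, had 2.68, 3.07 and 2.94 RPKM and 1 genic window of 104, at 1700018P08Rik. The fifth lay wholly in the noncoding gene 2610307P16Rik on chromosome 13 (202 kb, 2.05, 2.40 and 2.10 RPKM).

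The fourth, 202 kb on chromosome 12 from 109548001 to 109750000, held the imprinted noncoding RNAs Rian, Mirg and Meg3, all on the plus strand, with Rtl1 on the minus strand. At 3.76, 3.94 and 4.32 RPKM it was also the domain with the highest mean of all, and 47 of its 101 windows were called for H3K27me3 and 0 for H3K4me3. The next 4 by mean level were in Lrch1 (3.6, 3.77 and 4.42 RPKM), in Rps6ka2, a kinase of the MAP kinase pathway (3.62, 3.68 and 4.09), in Trpa1, an ion channel of sensory neurons (3.23, 3.95 and 4.13), and in Lrp2, the endocytic receptor megalin (3.15, 3.53 and 4.31). Of these 4, the Rps6ka2 and Lrp2 domains were called for H3K27me3 in 24 of 27 and 33 of 52 windows, Lrch1 in 7 of 30 and Trpa1 in none.

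The 103 gene-free domains had a mean of 2.50 RPKM and reached 188 kb. The longest lay on chromosome 16 from 5646001 to 5834000, at 2.10, 2.28 and 2.48 RPKM, and its nearest protein-coding gene was Rbfox1, which started 51355 bases away. The second lay on chromosome 11 from 52556001 to 52682000 (126 kb, 3.03 ± 0.21 RPKM, SD, n = 3). The median distance of gene-free domains to the nearest protein-coding gene was 114274 bases, and 4 of the 103 lay within 10 kb of one. The nearest gene pointed towards the domain, with the domain beyond its 3′ end, in 54 of the 103. No share for other gene-free windows was counted beside it, so it is not read as a tendency. Genes outside the annotation used here, GENCODE M21, were not looked for.

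Domains began inside genes more often than they ended inside them. Among the 1540 domains with at least 90% of their windows in 1 protein-coding gene, the edge nearer the gene's start lay inside the gene in 1389 and the edge nearer its end in 1003. The distance from gene start to domain was 46.5 kb at the median, and that from domain to gene end 13.1 kb. A domain ran past the gene end in 34.9% of cases, by a median of 2.42 kb, and past the gene start in 9.81%, by 1.07 kb. The domain covered a median of 45.9% of its gene, and these genes had a median length of 181 kb. Over all protein-coding genes, 10.2% of end windows and 4.86% of start windows were in domains, where the shares over all windows were alike (1.65% of valid windows held an end and 1.65% a start).

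Levels along domains rose slightly towards the 3′ end of the gene. Each of the same 1540 domains was cut in 3 along its gene. The part nearest the gene start had 2.24 RPKM and the part nearest the gene end 2.35 in replicate 1, 2.38 and 2.51 in replicate 2, and 2.47 and 2.60 in replicate 3. The difference was 0.071 ± 0.003 on the log2 scale (SD, n = 3), in the same direction in 3 of 3 replicates. It was read in the replicates that called the domains and is given as a description, without a test. The 3′ part was higher in 59.5%, 57.7% and 58.4% of single domains, so the difference was small and many domains ran the other way.

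Introns made up 90.3% of the gene bases in domains, and 81.0% of all domain bases, with 8.68% in exons and 10.4% outside genes. The intron share was 87.7% in shorter runs and 89.5% over all valid windows. Domain windows wholly inside genes had 2.39 ± 0.12 RPKM without any exon, 2.62 ± 0.13 with up to 50% of their bases in exons and 2.51 ± 0.12 with more (SD, n = 3). These levels are part of what chose the windows, and are given without a test.

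Taking 1 transcript for each protein-coding gene, that with the longest coding sequence, 37620 of 187698 introns (20.04%) in 2672 genes lay wholly inside a domain. Of introns of at least 20 kb, 801 of 8147 (9.83%) did, and of those of at least 50 kb, 106 of 2765 (3.83%). The longest was intron 2 of Prickle2 (chromosome 6, 92458659 to 92705345, 247 kb), whose ends are shown above. Its 122 windows had 2.35, 2.61 and 2.53 RPKM, and 5 of them had an H3K4me3 call and 0 an H3K27me3 call. The next was intron 5 of Scfd2, a gene of the SEC1 family (chromosome 5, 161 kb), with 2.48, 2.65 and 2.45 RPKM. Intron 2 of Shroom3, an actin-binding protein (chromosome 5, 139 kb), had 2.10, 2.34 and 2.26, intron 6 of Atxn1 (129 kb) 2.07, 2.31 and 2.23, and intron 3 of Ldlrad4 (chromosome 18, 129 kb) 2.196, 2.36 and 2.12. All 5 thus lay above 2 RPKM in each replicate.

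The first intron was covered least. In the 1541 genes with at least 25 domain windows, 35.4% of the bases of first introns lay in domains, against 47.3% of those of second introns, 60.4% of those of the introns between the second and the last and 55.6% of those of last introns. Wholly covered were 27.01% of first, 59.6% of second, 81.3% of middle and 72.1% of last introns. First introns of these genes came to 60.5 Mb and last introns to 11.8 Mb, so the classes differ in length as well as in place.

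**Figure D4:**
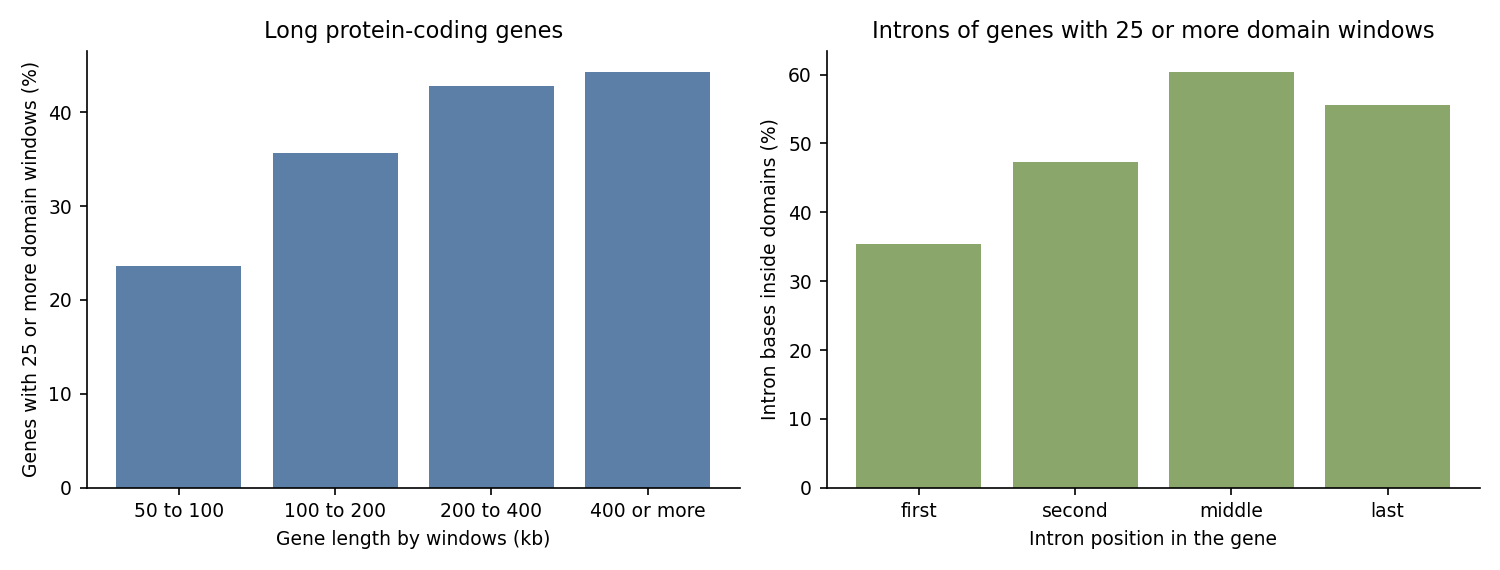
Left, the share of protein-coding genes with at least 25 domain windows, in percent, by gene length in kb (classes from 50 to 100 kb up to 400 kb or more), which goes from 23.6% to 44.3%. Right, for the genes with at least 25 domain windows, the share of bases inside domains for first, second, middle and last introns, lowest in first introns at 35.4%.

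Length alone did not give a gene a domain. Of 4968 protein-coding genes of at least 25 windows, 1541 (31.0%) had 25 or more domain windows, and 3140 (63.2%) had none at all. The share was 23.6% for genes of 50 to 100 kb, 35.7% for 100 to 200 kb, 42.8% for 200 to 400 kb and 44.3% above. Lsamp, a neuronal adhesion molecule of 2197 kb, was the longest without a domain window, with 213 of 1064 windows enriched, followed by Lrp1b and Macrod2. At the other end Auts2, a regulator of neuronal genes of 1106 kb, had 344 of 547 windows in 9 separate domains, and Celf2, an RNA-binding protein, 326 of 469 in 7. Gm20388 had 489 windows in 15 domains, but its annotated span of 4.43 Mb on chromosome 8 runs over other genes. In all, 316 protein-coding genes had windows in more than 1 domain.

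Functional lists of genes were counted by how often their long members carried a domain. The lists were drawn up with earlier results of these data known, so the counts are descriptions, read beside the 31.0% of all long genes. Of ubiquitin ligases and deubiquitinases 21 of 28 long members had at least 25 domain windows, of giant kinases and the PI3K and mTOR pathway 14 of 20, and of enzymes of H3K36 and DNA methylation 9 of 15. Long neuronal genes had 18 of 30, meiosis and DNA repair genes 6 of 12, H3K4 and H3K27 methylation enzymes 4 of 8, imprinted genes and their hosts 11 of 21, stereocilia and hearing genes 5 of 17 and oocyte growth genes 1 of 4. The neuronal list reached 18 with 9.61% of its windows in domains, near the 8.89% of all valid windows, whereas the ubiquitin list had 56.8%. The lists were not matched for gene length, with which the share of genes rose from 23.6% to 44.3% between the classes above.

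Domain windows covered nearly the whole of several long genes of these lists. The ubiquitin ligase genes Ubr4 and Huwe1 had 68 of 69 and 67 of 68 windows in domains, at 2.61, 2.68 and 3.28 RPKM and at 2.90, 3.25 and 3.30, and Hectd4 had 71 of 74. Trrap, a scaffold of histone acetyltransferases, had 46 of 46 windows, Mtor, the kinase of nutrient sensing, 54 of 55 and Foxo3, which holds primordial follicles dormant, 47 of 47. Among genome guardians, Atm had 47 of 48, Fancd2 32 of 33 and Brca1 31 of 32 windows. Atr and Rad50 had 42 of 47 and 28 of 29 windows enriched but none in a domain, since their runs were shorter than 25.

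Genes of the H3K36me3 and DNA methylation machinery were among the covered. Setd2, the enzyme of the mark itself, had 43 of 43 windows in domains at 2.45, 2.56 and 2.67 RPKM. Tet3, which oxidises methylated cytosine, had 49 of 49 windows at 2.47, 2.31 and 2.53. Nsd2 had 38 of 39, Kdm2b 59 of 60 and Kdm2a 39 of 42, while Nsd1 had 28 of 54 and Dnmt3a, the de novo DNA methyltransferase, 28 of 54 at 1.34, 1.53 and 1.37. Tet1 had 0 domain windows of 52, 1 of them enriched, and 36 of them were called for H3K27me3. Of the enzymes of the other marks, Jarid2 had 96 of 96, Kmt2c 87 of 113 and Ezh2, the H3K27 methyltransferase, 28 of 33, and Kmt2a 0 of 39 with 38 called for H3K27me3. Kit, the oocyte receptor of kit ligand, was the 1 long oocyte gene with 25 or more, at 34 of 41.

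H3K27me3 was rare in domains and H3K4me3 less frequent than elsewhere. Of domain windows 2.51% were called for H3K27me3, against 10.3% of enriched windows of shorter runs and 30% of all valid windows. For H3K4me3 the shares were 10.1%, 18.3% and 28.3%. Over all runs of at least 15 windows, domains included, 3.25% of windows were called for H3K27me3 and 10.8% for H3K4me3. Of these 168887 windows 105485 were domain windows. Whether low shares of both marks were particular to runs of 50 kb or more thus cannot be read from these values. With domains called on each replicate alone, H3K27me3 was at 2.56%, 3.30% and 3.32% in domains and 10.7%, 15.6% and 13.7% in shorter runs, and H3K4me3 at 10.2%, 7.74% and 9.44% against 19.5%, 20.9% and 20.2%. Domains were lower in 3 of 3 replicates for both marks, but the calls of the other marks are the same in each, without replicates here, so no test of them was made.

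**Figure D5:**
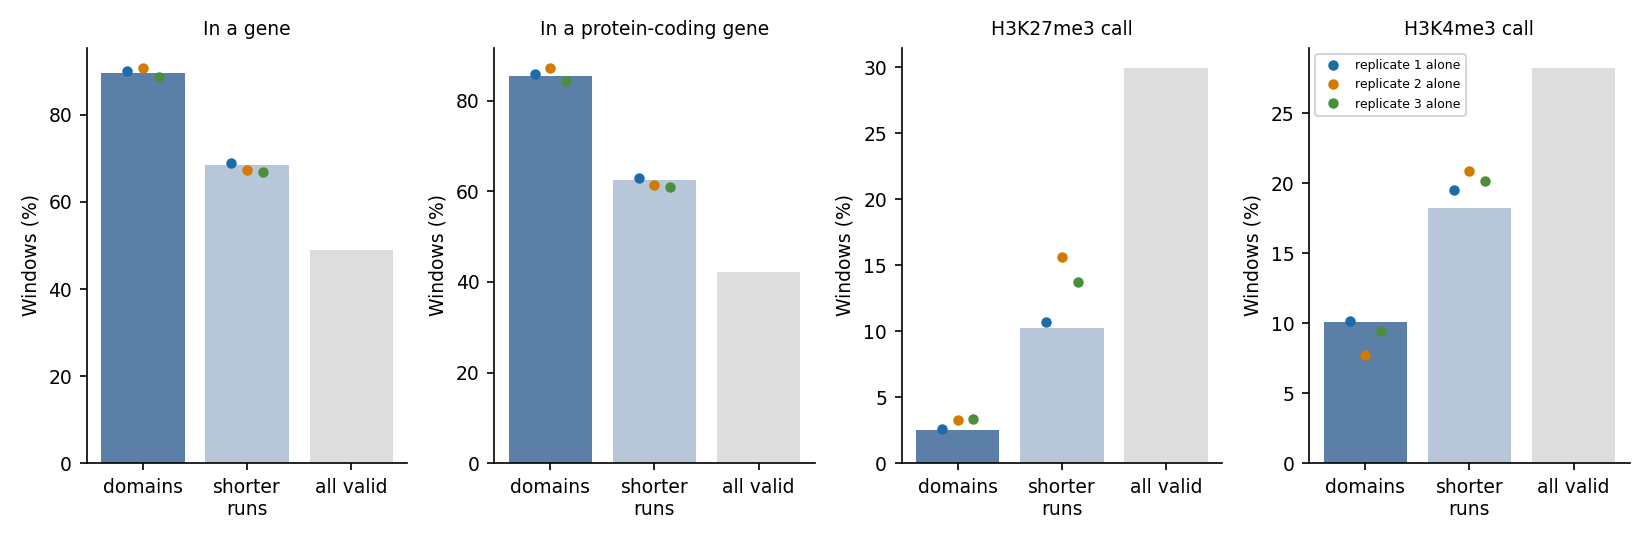
Share of windows, in percent, that lay in a gene, in a protein-coding gene, or were called for H3K27me3 or H3K4me3, in domains, in enriched windows of shorter runs and in all valid windows; bars are the calls on the mean of 3 replicates and points those on each replicate alone. The points of domains and shorter runs do not overlap in any panel.

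H3K27me3 was concentrated in few domains. No window of 2211 domains (84.7%) had the call, and 189 domains with at least 10% of their windows called held 85.7% of the 2646 such windows. In 37 domains at least 50% of the windows were called. At the top stood the domain over Ak8, which encodes an adenylate kinase, and Spaca9 on the other strand (chromosome 2, 28698001 to 28790000, 92 kb), with 46 of 46 windows at 2.63, 3.29 and 3.13 RPKM. Prkcb, a protein kinase C gene, had 35 of 36 windows (chromosome 7, 122544001 to 122616000, 1.80, 2.03 and 2.45 RPKM). The adhesion gene Cdh2, or N-cadherin, had 25 of 26 (chromosome 18, 16622001 to 16674000), Plch2, a phospholipase C, 32 of 35 (chromosome 4, 154984001 to 155054000), and a gene-free domain of 66 kb on chromosome 4 from 131526001 to 131592000 had 30 of 33.

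H3K4me3 lay towards the edges. The call was made in 33.7% of outermost domain windows, 21.4% of the next, 9.88% of the fifth and 7.43% of the eleventh, while H3K27me3 was at 3.16%, 2.83%, 2.39% and 2.51%. It never filled a domain: the highest share was 14 of 25 windows, in a nearly gene-free domain of chromosome 5 from 110460001 to 110510000 and in Fbxo34 on chromosome 14, followed by 14 of 26 both in Arid3b with the overlapping Gm17231 on chromosome 9 and in Btaf1 on chromosome 19. No window had the call in 352 domains. Gene starts made up 9.19% of domain windows with H3K4me3 and 2.10% of the rest.

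H3K4me3 was called at most protein-coding starts inside domains, and at 33.0% of domain windows with a gene start of any kind. Of 948 domain windows with the start of a protein-coding gene, 74.6% were called for H3K4me3, and of 453 that lay at least 5 windows from an edge, 63.8%. The share over all protein-coding start windows is not given here, so whether starts in domains differ from starts elsewhere cannot be read from these values. Of the 453 start windows deep inside domains, 310 had at least 20 CG per kb, and 81.6% of these were called. Start windows of the imprinted list lay in domains in 13 cases, and 1 of the 13 was called for H3K4me3, that of Trappc9. The 13 include starts of noncoding genes, such as Airn, Kcnq1ot1, Rian and Mirg. Each start was the outermost annotated start of its gene, and other starts of the same gene were not read. Outside domains 22 of 27 start windows of the list were called. Of those without the call, the windows of Nespas, Snrpn, Nnat and Slc38a4 were enriched for H3K36me3, and that of Igf2 was not. The start window of Grb10 and the one shared by Peg10 and Sgce were enriched and called. Lack of the call was thus not particular to starts in domains. Without replicates 1, 2 and 3 in turn, 10 of 11, 11 of 12 and 9 of 12 start windows in domains were without the call. The comparison was chosen after these values were seen.

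Of the 12 start windows in domains without H3K4me3, 8 had at least 20 CG per kb. Another protein-coding gene ran over 8 of the 13, none of them with the call (for Cdh15 it was the long model Gm20388). Nap1l5 in the 90 kb Herc3 domain had 1.49, 2.38 and 2.37 RPKM at its start window, and Zrsr1 in the 90 kb Commd1 domain 3.53, 2.77 and 4.74. The start of Airn lay in the 90 kb domain of Igf2r and had 3.94, 5.15 and 3.72 RPKM, and that of Kcnq1ot1 in a 56 kb domain of Kcnq1 had 2.31, 2.77 and 3.72. Peg13 in the 246 kb domain of Trappc9 had 4.21, 3.96 and 2.71 RPKM, Mcts2 in the 52 kb domain of H13 had 3.39, 6.74 and 2.71, and Snurf 3.94, 9.91 and 8.46. Replicates differed more in these single windows than over whole domains. Peg3 and Usp29 share a start window in a 52 kb domain, at 5.43, 6.34 and 8.46 RPKM, with 34.5 CG per kb. The starts of the hosts Herc3, Commd1, H13, Igf2r and Kcnq1 all lay outside domains, below 1 RPKM on average and with an H3K4me3 call. Of the other hosts, Snrpn runs over the start of Snurf. Its own start, outside domains and without the call, had 1.49, 3.57 and 0 RPKM, a mean of 1.69. Trappc9, the host of Peg13, started inside a domain with the call.

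Domains differed in base composition from the rest. GC content was 43.7% in domains, 42.5% in shorter runs and 41.8% over all valid windows, and CG dinucleotides came to 9.94, 8.72 and 8.32 per kb. Bases masked as repeats were 23.2%, 25.8% and 30.8%. In each replicate alone domains had more CG than shorter runs, with 10.04 against 8.79, 10.2 against 8.92 and 9.80 against 8.79 per kb. Windows with at least 20 CG per kb were called for H3K4me3 in 29.7% of cases in domains, in 45.6% in shorter runs and in 65.5% over all valid windows. The part of base composition in read recovery was not tested.

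At the threshold of length, domains of exactly 25 windows (184) had 2.36 RPKM and the 203 runs of exactly 24 windows 2.36 as well. The lowest domain of 25 windows lay in Ssbp2 on chromosome 13 (1.52, 1.51 and 1.87 RPKM) and the highest in Dnah9 on chromosome 11 (3.09, 3.36 and 3.52). Just outside, runs of 24 windows reached from 1.53 RPKM in Ptprm on chromosome 17 to 3.19 in Erich6b on chromosome 14.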

How the data were processed

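H3K36me3 chromatin immunoprecipitation was sequenced in 3 pools of GV oocytes. The authors mapped reads to GRCm38 (Bowtie2 2.2.9, per the submitters' processing notes), counted them in 2 kb windows, dropped windows by their input level, and deposited RPKM values per replicate, with a category of marks for each valid window. Low values were whole multiples of 1 read in every replicate, which gave the depths in the text. The exact sign-flip test gives p = 0.25 whenever all 3 held-out differences share a direction, whatever their spread. These differences are not independent, since each replicate helped to call the domains that were read in the others.

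From the deposited RPKM, windows were joined into runs (Python 3.11.15, pandas 2.3.3) and placed by midpoint in GENCODE M21 genes. GRCm38.p6 from RefSeq gave base composition and printed sequences, and promoters came from the RefSeq table of the same build. Steps were checked on simulated data. The held-out comparison used an exact sign-flip permutation test over replicates; the planned test of the strand difference is not reported, since the same replicates called the domains. The members and gene lists were chosen with earlier results of these data known. Named were the 10 longest and 5 highest domains, the 5 longest with fewer than 50% of their windows in protein-coding genes, the 5 and 3 with most H3K27me3 and H3K4me3 calls, the 5 longest covered introns, the 5 domains with most genes, list genes with 25 domain windows, and runs at the length threshold. Alternatives varied the threshold, run length, replicate rule and gaps.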

Additional observations from a re-analysis of the deposited data

Results flagged for a closer look

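Outside the domains, 15 valid windows lay on the Y chromosome, for which there was no control sample. They are counted among all valid windows above, and the enriched ones among shorter runs, but were not compared on their own. Their mean was 1.48 RPKM, with 0.525, 1.22 and 2.71 RPKM in replicates 1, 2 and 3, and 5 of the 15 were enriched. None of them was in a domain. The 1 window of the mitochondrial genome had 0.264 RPKM, with reads in replicate 2 alone. The source of these reads was not tested.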

How the results depend on the processing

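Of 129 recomputed values for 13 results, 71 were counted as unchanged and 58 moved beyond their margin. For numbers of domains and windows the margin was a factor of 1.5. For shares and base composition it was the SD between calls on each replicate alone. It was wide for the share of long genes, at 11.2 percentage points, so 20.8% without replicate 1 counted as unchanged. The held-out and strand differences were judged by direction alone, and no other result could be counted as reversed. A threshold of 1.5 RPKM gave 849 domains and 29088 windows, 92.0% genic, 88.2% protein-coding, 86.5% of domains on 1 strand, 6.72% of windows with H3K4me3, 44.4% GC, 10.2 CG per kb and 11.3% of long genes with a domain. At 0.8 RPKM the shares were 88.3% genic, 83.9% protein-coding, 90.1% intron, 3.05% H3K27me3 and 12.0047% H3K4me3. Runs of at least 50 windows gave 540 domains, 36688 windows, 92.7% genic, 89.2% protein-coding, 92.2% intron, 44.3% GC, 10.3 CG per kb and 14.1% of long genes. Runs of at least 15 gave 6016, 168887, 86.9%, 82.5%, 89.3% intron, 83.9% on 1 strand, 3.25% H3K27me3, 9.73 CG per kb and 43.9% of long genes. With every replicate above 1 there were 142 domains, 4203 windows, 92.2% genic, 89.7% protein-coding, 89.5% on 1 strand, 6.16% H3K27me3, 5.62% H3K4me3, 45.3% GC, 10.6 CG per kb and 1.97% of long genes. Allowing 1 missing or low window gave 4181, 200935, 85.9%, 81.3%, 90.1% intron, 74.7% on 1 strand, 3.45% H3K27me3, 13.2% H3K4me3, 9.68 CG per kb and 48.1% of long genes. Without edge windows H3K4me3 was 8.18%, any overlap gave 90.8% genic, protein-coding exons alone gave 91.2% intron, and all genes gave 73.4% on 1 strand. The cause was not tested.

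Leaving out 1 replicate gave 1731 to 2528 domains, 62953 to 98987 windows and 81.7% to 83.8% on 1 strand, in each case moving beyond the margin without replicate 1, the deepest. The comparison of imprinted starts was added after seeing the data. The held-out and strand differences kept their direction in every alternative run, at 0.23 to 0.66 and 0.06 to 0.08 on the log2 scale, the held-out one being lowest against runs of 5 to 24 windows. The calls of H3K4me3 and H3K27me3 have no replicates here, and a few long gene models, such as Gm20388, run over other genes.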
